A study of Mus musculus with 14 samples.

Results

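The genes described are the 5 members of the Ikaros family of zinc finger transcription factors, Ikzf1 to Ikzf5, out of 21887 protein-coding genes in the RefSeq gene table of the mouse build GRCm38.p6. They were chosen by name, and each was taken with 20 kb on either side. Peaks had been called from ChIP-seq of 3 targets. These were GATA2, RUNX1 and polymerase II with phospho-serine 2 in its tail (S2P), which marks polymerase that is elongating. All cells were G1ER, a mouse erythroblast line without GATA1 of its own, in which estradiol switches on a GATA1 fusion protein. They were either wild type (WT) or Chd7-/- (KO), Chd7 encoding a chromatin remodelling ATPase. The WT and KO cells thus share the loss of GATA1 and the fusion. The sample records give 48 h for a differentiation assay in all 14 samples. Whether the cells used for ChIP had received estradiol, and whether the KO line was 1 clone, is not given in the sources used here. Of 14 samples, 8 were immunoprecipitated and 6 were inputs. GATA2 and RUNX1 had 1 library per genotype, and S2P had 2 replicates per genotype combined into 1 list.

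Ikaros proteins bind DNA through a cluster of zinc fingers at one end and pair with each other through fingers at the other end. They recruit the NuRD remodelling and deacetylase complex, and they are best known for their roles in lymphocytes. Ikaros (Ikzf1) is needed for lymphoid development and is also made in stem, progenitor and erythroid cells. Helios (Ikzf2) is known from early progenitors and regulatory T cells, Aiolos (Ikzf3) from B cells, Eos (Ikzf4) from regulatory T cells, and Pegasus (Ikzf5) is a broadly expressed, more distant member. GATA2 and RUNX1 are transcription factors of blood stem and progenitor cells, and both bind far from gene starts as well as near them.

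There were 68199 GATA2 peaks in WT and 80611 in KO. RUNX1 had 28952 and 35281, and S2P had 163620 and 165206. Summit heights are given as whole ChIP fragments, with a median of 23 and 24 for GATA2 and 38 and 37 for RUNX1. The highest summit of each factor list was 286 (WT) or 282 (KO) fragments, exactly 2 times its smallest peak width, so the strongest sites lie near a ceiling. Chd7 lay under no S2P peak in either genotype, so these lists give no check of the knockout at that gene. Gata2 lay under S2P peaks over 99.3% of its length in WT and 93.6% in KO, and Runx1 over 80.6% and 89.0%. Of erythroblast markers, 6 of 8 lay at least partly under S2P peaks in both genotypes, with a range over the list of 0% to 100%, and Hbb-b1 and Slc4a1 were at 0. All 4 B cell and all 4 T cell markers were at 0 in both genotypes, as were 3 of 4 markers each for myeloid cells, mast cells and megakaryocytes. Markers were counted at any length, though Hba-a1 (100%), Hbb-b1, Elane and Pf4 are shorter than 2 kb. Since no target had more than 1 list in a genotype, no difference between genotypes was tested, and every difference below is one between lists. Intervals cover counting error only, and each value is an average over the cells of a culture.

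RUNX1 peaks lay over RefSeq promoters of Ikzf5 and Ikzf1, and no GATA2 peak lay over them. Those sequences are shown because, among the member promoters available, they are the ones under a RUNX1 peak. The promoter table covers 250 bases before to 50 bases after each gene start, and it held 3 promoters for 2 of the 5 members. The starts of Ikzf2, Ikzf3 and Ikzf4 were therefore not checked. The Ikzf5 promoter is chr7:131410429-131410728 on the minus strand, and its capitals mark the 31 bases within 15 of the WT RUNX1 summit. The Ikzf1 promoter is chr11:11685675-11685974 on the plus strand, and its capitals mark the 19 bases of the window within 15 of the KO RUNX1 summit. Both are written 5′ to 3′ from RefSeq GRCm38.p6.
Ikzf5 promoter: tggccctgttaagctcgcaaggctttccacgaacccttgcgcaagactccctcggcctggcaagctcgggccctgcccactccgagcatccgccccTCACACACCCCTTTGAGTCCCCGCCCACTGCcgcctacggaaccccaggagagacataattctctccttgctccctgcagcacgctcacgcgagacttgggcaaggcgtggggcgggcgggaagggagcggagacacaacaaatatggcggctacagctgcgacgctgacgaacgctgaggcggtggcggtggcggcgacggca
Ikzf1 promoter: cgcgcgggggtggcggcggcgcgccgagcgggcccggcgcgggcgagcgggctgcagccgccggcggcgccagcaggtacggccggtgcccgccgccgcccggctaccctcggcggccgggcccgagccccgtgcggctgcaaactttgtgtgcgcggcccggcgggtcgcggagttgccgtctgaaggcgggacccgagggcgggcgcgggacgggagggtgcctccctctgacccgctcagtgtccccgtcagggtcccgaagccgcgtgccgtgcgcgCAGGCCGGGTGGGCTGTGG

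The Ikzf5 promoter was occupied by RUNX1 in both genotypes and by GATA2 in neither. Its RUNX1 summit held 105 fragments in WT (95% Poisson interval 85.9 to 127) and 116 in KO (95.9 to 139), so the genotypes overlapped. The summits lay 139 bases (WT) and 124 bases (KO) before the gene start, and the WT peak, chr7:131410386-131410803, covered the whole window. Both summits, at 131410617 (WT) and 131410602 (KO), lay just inside Acadsb, a mitochondrial acyl-CoA dehydrogenase gene. Its table entry starts at 131410601, next to Ikzf5, so the peak cannot be assigned to Ikzf5 alone. The Ikzf1 promoter was under a RUNX1 peak in KO only, with 28 fragments and a summit 46 bases past the gene start. The other Ikzf1 promoter, 4 kb further on, had no peak of any factor list. Over all 32851 promoters in the table, 24.5% were overlapped by a WT and 28.1% by a KO RUNX1 peak, against 4.19% and 4.96% for GATA2.

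The 3 promoters were searched on both strands for the GATA letters AGATAA or TGATAA, the RUNX letters TGTGGT and the Ikaros letters TGGGAA, and none matched. Of all promoters in the table, 18.6% held the GATA letters, 16.8% the RUNX letters and 25.6% the Ikaros letters. With the RUNX letters shortened to TGTGG, a choice made after the values were seen, the Ikzf1 promoter matched at its last 5 bases, which start at position 296 counted from its 5′ end. These 5 letters, which are contained in the 6-letter form, occurred in 55.9% of all promoters. GC content was 65.7% in the Ikzf5 promoter, 81.3% in the Ikzf1 promoter shown and 52.7% as the median of all promoters.

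All 5 members had GATA2 peaks and RUNX1 peaks in their windows in both genotypes. Over all protein-coding genes, 70.8% had a GATA2 peak within 20 kb in WT and 74.3% in KO, 59.3% and 61.2% had a RUNX1 peak, and 68.1% (GATA2) and 57.9% (RUNX1) had one in both genotypes. Both factors in both genotypes were found at 54.4% of genes. Occupancy of some kind is therefore the usual state of a gene in these lists, and the members differed in how much of it they had.

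All 5 members were denser in GATA2 peaks than the median gene, and Ikzf1 and Ikzf2 were the densest. Ikzf2 had 39 GATA2 peaks in WT and 52 in KO, a number reached by 0.242% and 0.155% of genes. Ikzf1 had 29 and 33, reached by 0.690% and 0.667% of genes. Since long windows collect more peaks, density is the fairer measure. Per 100 kb of window Ikzf1 had 22.7 GATA2 peaks in WT and 25.8 in KO, and Ikzf2 19.9 and 26.5, against gene medians of 2.95 and 3.93. Windows at least as dense as that of Ikzf1 made up 0.978% (WT) and 0.832% (KO) of all, and for Ikzf2 1.80% and 0.717%. Ikzf4 with 11.4 and 10.1 and Ikzf5 with 11.3 in both lists had near-equal densities, and Ikzf3 was the sparsest with 6.59 and 7.41. In WT these densities were reached by 11.6% of genes for Ikzf4, 11.9% for Ikzf5 and 29.0% for Ikzf3, and in KO by 19.7%, 16.2% and 30.2%.

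For RUNX1, Ikzf1 was again dense, and the other members lay closer together. Ikzf1 had 10 in WT and 14 in KO (7.81 and 10.9 per 100 kb), and Ikzf2 had 9 and 15 (4.59 and 7.65 per 100 kb). Ikzf4 had 3 in each genotype (3.81 per 100 kb), Ikzf5 had 2 (3.23) and Ikzf3 had 2 (1.65), and the gene medians were 1.66 and 1.98 per 100 kb. In WT the density of Ikzf1 was reached by 12.3% of genes, that of Ikzf2 by 25.9%, Ikzf4 by 31.6%, Ikzf5 by 35.3% and Ikzf3 by 50.1%. In KO Ikzf2 stood further apart, at 17.6%, beside 9.64% for Ikzf1 and 36.8% for Ikzf4. Ikzf3 therefore sat at the gene median for RUNX1, while its GATA2 density was above the median. All RUNX1 summits of Ikzf3, Ikzf4 and Ikzf5 lay outside the gene bodies, whereas all those of Ikzf1 lay inside. The promoter peak of Ikzf5 did reach into the gene body.

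**Figure D1:**
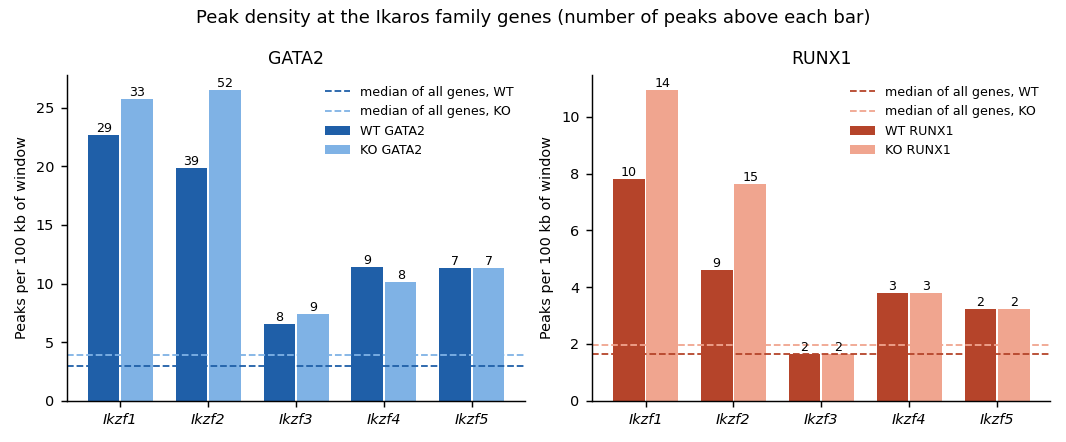
Bars give peaks per 100 kb of window (the gene with 20 kb on either side) for GATA2 (left) and RUNX1 (right) in the WT and KO lists, 1 library each, with the number of peaks above each bar. Dashed lines are the medians of all protein-coding genes, 2.95 and 3.93 for GATA2 and 1.66 and 1.98 for RUNX1. Ikzf1 and Ikzf2 have the highest bars for both factors, and in WT RUNX1 Ikzf2 (4.59) is close to Ikzf4 (3.81).

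Across the 5 windows GATA2 peaks numbered 92 in WT and 109 in KO, and RUNX1 peaks 26 and 36. The KO list was larger everywhere, so these numbers are read against it. The KO to WT ratio for GATA2 was 1.18 at the members and 1.18 over all gene windows, and for RUNX1 it was 1.38 against 1.23. More GATA2 peaks in KO than in WT were found at 3 of 5 members (Ikzf1, Ikzf2 and Ikzf3), beside 41.8% of all genes. This count depended on the limit: at −log10 q of at least 10 KO had more at all 5, with Ikzf4 going from 9 and 8 peaks to 5 and 6, and at 5 Ikzf3 was tied at 8 while Ikzf4 (7 and 8) and Ikzf5 (5 and 7) had more in KO. For RUNX1 this held at 2 of 5 (Ikzf1 and Ikzf2), beside 31.8%. Without Ikzf2, which held the largest gain, GATA2 peaks numbered 53 and 57 and RUNX1 peaks 17 and 21.

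Most WT peaks at the members had an overlapping KO peak. For GATA2 84 of 92 WT peaks were shared (91.3%, 95% Clopper-Pearson interval 83.6% to 96.2%, against 82.8% in all windows). Of KO peaks 84 of 109 were shared (77.1%, 68.0% to 84.6%, against 70.2%). For RUNX1 25 of 26 WT peaks were shared (96.2%, 80.4% to 99.9%, against 87.4%) and 24 of 36 KO peaks (66.7%, 49.0% to 81.4%, against 69.8%). Peaks found in 1 genotype were weak. The 25 GATA2 peaks of KO alone held 12 to 42 fragments with a median of 21, and the 12 RUNX1 peaks of KO alone held 17 to 37 with a median of 29.5. Shared KO peaks had medians of 44.5 and 54.5 fragments, and the medians of the whole KO lists were 24 and 37, so the peaks private to KO were lower than either.

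RUNX1 at these genes mostly sat on GATA2 sites. In WT 18 of 26 RUNX1 peaks were overlapped by a GATA2 peak (69.2%, 48.2% to 85.7%, against 50.7% in all windows), and in KO 26 of 36 (72.2%, 54.8% to 85.8%, against 49.6%). Seen from GATA2, 18 of 92 peaks (19.6%, against 23.5%) and 26 of 109 (23.9%, against 24%) carried RUNX1. When overlapping peaks of the 4 lists were merged, the 5 windows held 128 sites: 39 at Ikzf1, 57 at Ikzf2, 12 at Ikzf4 and 10 each at Ikzf3 and Ikzf5. Both factors were present in both genotypes at 19 sites, of which 9 were at Ikzf1, 7 at Ikzf2 and 1 at each other member. GATA2 was present in both genotypes without RUNX1 at 58 sites. The WT GATA2 summits had a median of 119 fragments (23 to 266) at the 19 sites and 24 (11 to 133) at the 58. The ranges overlapped, but every member's strongest GATA2 site was one that RUNX1 also occupied in both genotypes. Neither comparison was made over all genes, so whether they set the members apart is not known.

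At Ikzf1, which encodes Ikaros, 3 sites inside the gene stood above the rest. The strongest, chr11:11729061-11729648, lies 44.5 kb into the gene and held 245 GATA2 fragments in WT (215 to 278) and 271 in KO (239.7 to 305), with 156 (132 to 182) and 183 (157 to 212) RUNX1 fragments. The site at 50.4 kb, chr11:11735151-11735574, held 241 and 251 GATA2 fragments and 75 and 113 RUNX1 fragments. The site at 26.9 kb, chr11:11711578-11712161, held 212 and 226 GATA2 fragments but 35 and 40 of RUNX1. GATA2 was thus near the ceiling at all 3 sites, while RUNX1 was high at the first of them and low at the last. At 9.4 kb, chr11:11694223-11694504, RUNX1 had 61 fragments in WT and 55 in KO, beside 56 and 69 of GATA2. At the other 5 sites with both factors in both genotypes, WT GATA2 ranged from 23 to 97 fragments. RUNX1 was found in KO alone at 4 Ikzf1 sites with 17 to 32 fragments, 3 of them without GATA2 and 1 of them the promoter shown above.

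At Ikzf2, which encodes Helios, the strongest sites lay inside the gene and beyond its low-coordinate end. The gene table gives no strand for this gene, so ends are named by coordinate. The site at 28.7 kb, chr1:69559255-69560317, held 266 GATA2 fragments in WT (235 to 300.0) and 277 in KO (245 to 312), with 121 and 150 RUNX1 fragments. The site 17.4 kb below the low end, chr1:69513447-69514977, was 1531 bp wide and held 265 and 264 GATA2 fragments and 201 and 217 RUNX1 fragments. By −log10 q that RUNX1 peak ranked 590 of 28952 in WT and 342 of 35281 in KO, the highest place of any RUNX1 peak at a member in either list. Beside it, 14.9 kb below the end, GATA2 held 179 and 208 fragments and RUNX1 75 and 92. A further strong site at 99.4 kb, chr1:69630079-69630905, held 189 and 215 GATA2 fragments and 72 and 97 RUNX1 fragments. At these sites the WT and KO intervals of GATA2 overlapped. The first 2 of them lay near the ceiling of 286 (WT) and 282 (KO) fragments, where a difference could not show in full.

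**Figure D2:**
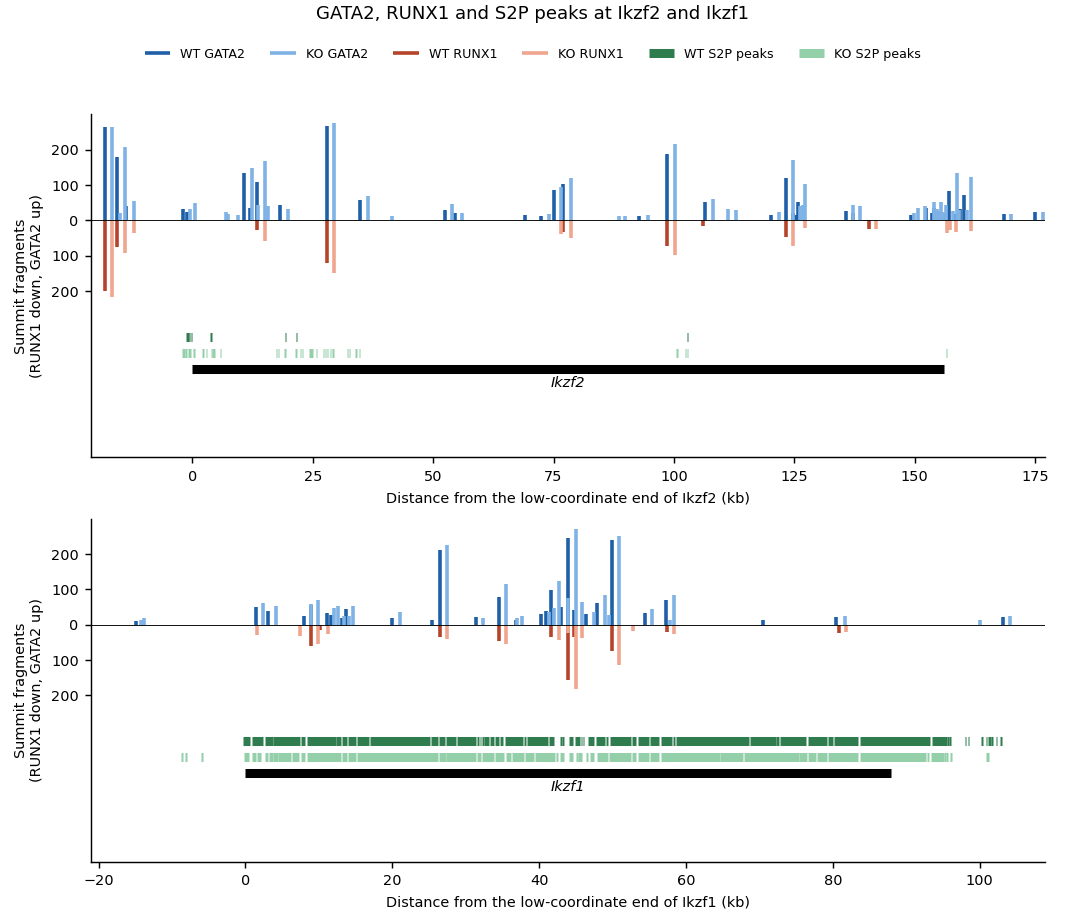
Peaks at Ikzf2 (top) and Ikzf1 (bottom), with distance in kb from the low-coordinate end of each gene along the horizontal axis. Vertical bars stand at summits and give fragments, GATA2 upward and RUNX1 downward, with WT bars moved slightly left and KO bars slightly right so that both can be seen. Green blocks are WT and KO S2P peaks and the black bar is the gene. S2P peaks fill Ikzf1 and are few at Ikzf2, while strong GATA2 and RUNX1 summits stand at both genes.

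Ikzf2 also held most of the sites that differed between the lists, but it held many of the sites of any kind. It had 57 of the 128 member sites and 16 of the 37 with RUNX1. Of the 12 member sites with RUNX1 in KO alone, 7 were at Ikzf2, and 6 of these 7 lay on GATA2 sites present in both genotypes. Around the high-coordinate end there were 4 of them, within 5 kb of that end. The site 0.447 kb inside the end held no RUNX1 peak in WT and 35 fragments in KO, with GATA2 at 26 and 45. Just outside the end, at chr1:69687533-69687872, RUNX1 stood alone with 27 fragments in KO. At 1.78 kb beyond the end RUNX1 had 33 fragments in KO, with GATA2 at 84 and 135, and at 4.81 kb it had 31, with GATA2 at 72 and 124. GATA2 fragments were thus more numerous in KO at these 3 GATA2 sites, while for RUNX1 the WT list gives no value. A peak missing from a list lies under the limit of the caller, which does not show that the factor is absent.

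The 84 GATA2 and 23 RUNX1 peaks that overlapped 1 to 1 between genotypes allowed a direct comparison of summits. Fragments were scaled to the lowest background in their own list, 1.48 (WT) and 1.57 (KO) for GATA2 and 1.37 and 1.39 for RUNX1. GATA2 was higher in KO at 65 of 84 summits (77.4%), beside 60.8% of all 53508 pairs, with a median log2 ratio of KO over WT of 0.22 against 0.11. RUNX1 was higher in KO at 20 of 23 summits (87.0%), beside 70.8% of all 23560 pairs, with a median of 0.27 against 0.19. Outside chromosome 5, where no member lies, 59.1% of GATA2 and 69.4% of RUNX1 pairs were higher in KO. Their median log2 ratios were 0.087 and 0.17. Both lists thus leaned towards KO at the members and everywhere else. Setting the median of all pairs to 0 left member medians of 0.11 (GATA2) and 0.08 (RUNX1).

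Few summits changed by a fold of 2 or more, the size used as a call with 1 library a group. For GATA2 3 of 84 were at least 2-fold higher in KO, beside 2.8% of all pairs, and none was 2-fold lower, beside 1.58%. All 3 were weak to middling in WT. The site at 126.0 kb in Ikzf2 kept 2-fold under every scaling tried. The one at 8.4 kb in Ikzf1 lost it with the median of all pairs at 0 (0.99) and by deposited fold enrichment (0.88), and the one at 150.0 kb in Ikzf2 by fold enrichment (0.51). At 8.4 kb in Ikzf1 fragments were 26 in WT and 59 in KO, a log2 ratio of 1.10 (95% exact interval 0.41 to 1.82). At 126.0 kb in Ikzf2 they were 15 and 45, a log2 ratio of 1.5 (0.63 to 2.45), and at 150.0 kb 14 and 34, a log2 ratio of 1.19 (0.26 to 2.21). For RUNX1 the 14.2 kb site of Ikzf2 was the only one of 23 past 2-fold, with 28 and 59 fragments and a log2 ratio of 1.05 (0.38 to 1.76), beside 2.74% of all pairs, and none was 2-fold lower, beside 1.13%. With the median of all pairs at 0 (0.86) and by fold enrichment (0.93) it no longer reached 2-fold. By fold enrichment the 1 RUNX1 summit past 2-fold was at Ikzf4 instead, 3.07 kb below its low end (1.02). Outside chromosome 5, where no member lies, 1139 of 50230 GATA2 and 438 of 22009 RUNX1 pairs were at least 2-fold higher in KO. There 831 GATA2 and 259 RUNX1 pairs were at least 2-fold lower.

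Counting error alone left more pairs apart. The interval lay above 0 at 15 of 84 GATA2 pairs, beside 9.32% of all pairs, with 10 at Ikzf2, 4 at Ikzf1 and 1 at Ikzf3. For RUNX1 it lay above 0 at 3 of 23, beside 15%, with 2 at Ikzf2 and 1 at Ikzf1. It lay below 0 at no member pair of either factor, beside 3.55% and 2.85% of all pairs. The RUNX1 pair at Ikzf1 was the 50.4 kb site, 75 and 113 fragments, with a log2 ratio of 0.57 (0.13 to 1.01). By deposited fold enrichment, which divides by the local background, the same site went from 14.4 to 13.1. At Ikzf4 and Ikzf5 no interval excluded 0. These intervals were not recounted with the median of all pairs at 0. That median was 0.11 for GATA2 and 0.19 for RUNX1, above some of the lower bounds, such as 0.01 for GATA2 at Ikzf3.

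**Figure D3:**
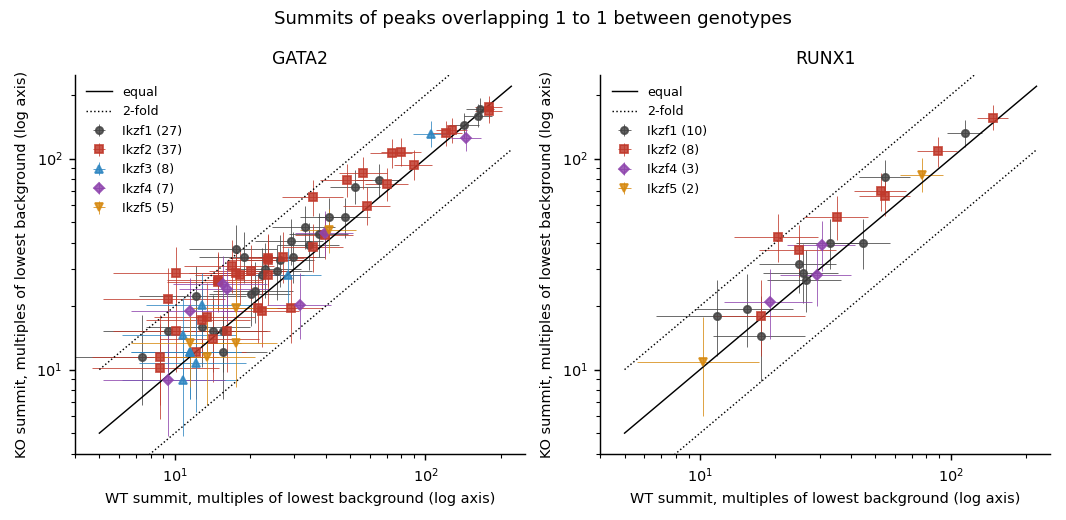
Each point is a pair of peaks that overlap 1 to 1 between genotypes, for GATA2 (left, 84 pairs) and RUNX1 (right, 23 pairs). Axes give the WT and KO summit fragments in multiples of the lowest background of the list, on log axes, and bars are exact 95% Poisson intervals. The solid line marks equal heights and the dotted lines a 2-fold difference. Most points lie above the solid line, and 3 GATA2 points and 1 RUNX1 point lie beyond the upper dotted line.

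The higher GATA2 summits of KO at Ikzf2 were concentrated in the stretch from 120 kb onward, a boundary chosen after the values were seen. There the 18 GATA2 pairs had a median log2 ratio of 0.60, with 15 higher in KO and 8 intervals above 0. In the stretch before 120 kb the 19 pairs had a median of 0.11, with 14 higher in KO and 2 intervals above 0. The site at 126.4 kb shows the pattern, with 53 GATA2 fragments in WT and 103 in KO and a RUNX1 peak of 20 fragments in KO alone. RUNX1 was found in KO alone at 5 of 26 sites beyond 120 kb and at 2 of 31 before it. By deposited fold enrichment the GATA2 medians were 0.25 and -0.01, and 15 of 18 and 9 of 19 pairs were higher in KO. At the site 4.81 kb beyond the end the fold enrichment went the other way, from 17.9 in WT to 14.1 in KO, over a local background of 3.07 fragments in WT and 7.84 in KO as the caller gave it. GATA2 pairs within 1 Mb outside the Ikzf2 window had a median log2 ratio of 0.25 (43 pairs), against 0.08 for all pairs on chromosome 1.

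Ikzf3, which encodes Aiolos, had weak GATA2 peaks in its body and 1 strong site outside. The 4 WT peaks in the body held 16 to 19 fragments and the 5 KO peaks 14 to 32. The strong site lay 5.65 kb beyond the high end, chr11:98550957-98552125, in Zpbp2, a gene for a zona pellucida binding protein. It held 156 GATA2 fragments in WT (132 to 182) and 206 in KO (179 to 236), and 52 and 82 RUNX1 fragments. The GATA2 log2 ratio there was 0.32 (0.01 to 0.63). RUNX1 had 2 WT peaks against 1 KO peak at that site, so no pair was formed, and its only other peak was in KO alone, in Mien1, with 21 fragments.

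Ikzf4, which encodes Eos, showed 1 strong GATA2 site between it and Rps26, a ribosomal protein gene. It lay 3.1 kb below the low end, chr10:128627548-128627898, and held 216 GATA2 fragments in WT (188 to 247) and 197 in KO (170 to 227), with 26 and 29 RUNX1 fragments. Here KO had the lower GATA2 summit by fragments, with a log2 ratio of -0.22 and an interval from -0.50 to 0.07 that includes 0. By deposited fold enrichment it was higher in KO, 27.3 in WT and 37.0 in KO, over local backgrounds of 6.95 and 4.35 fragments. The RUNX1 fold enrichment at this site was 3.06 in WT and 6.20 in KO, a log2 ratio of 1.02. A RUNX1 site without GATA2 lay next to this site, 4.2 kb below the end, with 42 fragments in WT and 54 in KO. In the gene body a 1608 bp stretch at 31.9 kb held 59 and 70 GATA2 fragments, and a site at 34.2 kb held 47 and 32, a log2 ratio of -0.64 (-1.34 to 0.04). The third RUNX1 site lay near the edge of Suox, a sulfite oxidase gene, with 40 and 39 fragments.

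Ikzf5, which encodes Pegasus, had 7 GATA2 peaks and 2 RUNX1 peaks in each list, and the 2 factors were strongest at different places. Besides the promoter peak of 105 and 116 fragments, its window held 1 site with both factors, 14.6 kb beyond the high end. Both the summits of the promoter peak and this site lay in Acadsb. That site held 61 (46.7 to 78.4) and 72 (56.3 to 90.7) GATA2 fragments and 14 and 15 RUNX1 fragments. Weaker GATA2 peaks lay in the gene body, 11 to 26 fragments high in the WT list and 18 to 31 in the KO list. At Ikzf4 too the highest RUNX1 summit lay on a site without GATA2, while at Ikzf1, Ikzf2 and Ikzf3 it lay on a GATA2 site.

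**Figure D4:**
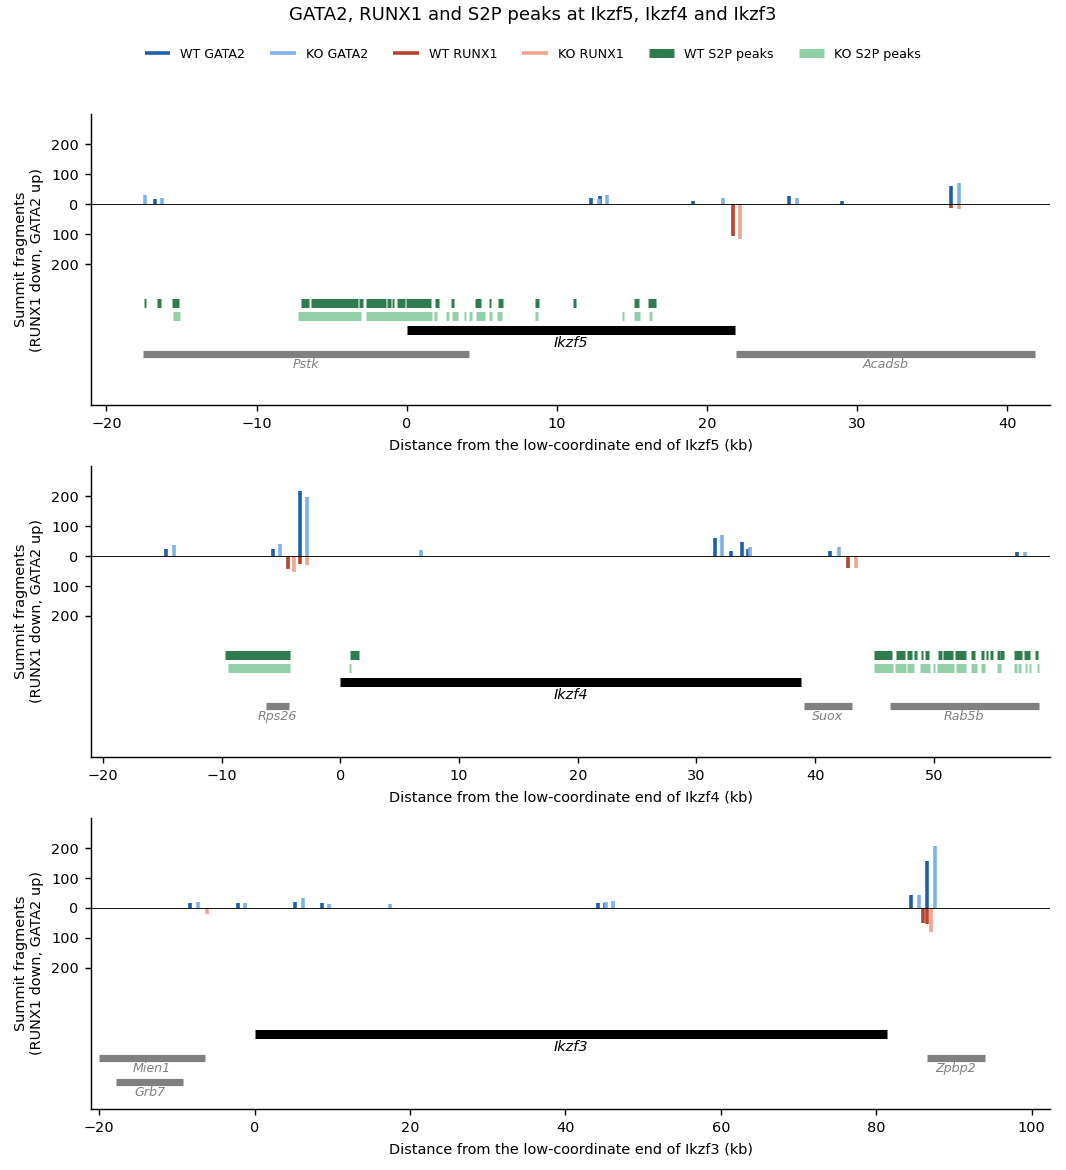
Peaks at Ikzf5 (top), Ikzf4 (middle) and Ikzf3 (bottom), with distance in kb from the low-coordinate end of each gene. Bars at summits give fragments, GATA2 upward and RUNX1 downward, with WT moved slightly left and KO slightly right, green blocks are S2P peaks, the black bar is the member and grey bars are other protein-coding genes. RUNX1 stands alone at the high end of Ikzf5, a tall GATA2 bar of 216 (WT) and 197 (KO) stands beside Ikzf4, and Ikzf3 carries no S2P.

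S2P ranged among the members from nearly the whole gene to none. Ikzf1 lay under S2P peaks over 90.1% of its body in WT and 91.1% in KO, shares that 3.99% and 3.71% of genes of at least 2 kb reached. Ikzf5 was covered over 19.0% and 22.8%, Ikzf2 over 0.913% and 4.78%, and Ikzf4 over 1.95% and 0.538%. Ikzf3 had no S2P peak in either list. Covered at 50% or more was 1 member of 5 in both genotypes, beside 16.7% of 19304 genes in WT, 17.1% in KO and 15.8% in both. Some S2P was found at 4 of 5 members, beside 50.3% and 50.6% of genes. The medians were 1.95% and 4.78% over the 5 members and 0.0532% and 0.160% over all genes. Among the 9986 genes with S2P in either list, 61.0% had a higher share in KO.

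Over Ikzf1 the S2P cover ran through the whole gene. It was made of 49 peaks in WT and 42 in KO, the widest 9957 and 11022 bp, with a highest fold enrichment of 13.3 and 11.3. In 10 equal parts of the gene the share ran from 77.5% to 98.7% in WT and from 76.5% to 98.8% in KO, lowest in both in part 6, which holds the 2 strongest GATA2 sites. It also reached past the gene end, where 48.1% (WT) and 39.3% (KO) of the next 20 kb lay under S2P peaks.

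Ikzf2 combined dense GATA2 binding with little S2P, and more of it in KO. There were 6 S2P peaks in the body in WT, covering 1.43 kb, and 27 in KO, covering 7.47 kb. They fell in the same parts of the gene, counted from the low end in 10 equal parts. Parts 1, 2 and 3 were covered over 2.61%, 4.13% and 0.954% in WT and over 11.96%, 24.8% and 6.92% in KO. Part 7 was covered over 1.43% and 4.19%, and the other 6 parts were at 0 in both. These peaks were weak, with a median fold enrichment of 2.096 in WT and 2.42 in KO, and of the 27 KO peaks 6 overlapped a WT one. The gain of 3.87 percentage points was reached or passed by 12.9% of all genes, so it is of a size common in these lists. Inside the gene the gain in S2P lay in the first 3 parts and part 7. Of the 10 GATA2 pairs with an interval above 0, 8 lay beyond 120 kb, some of them past the high end. That boundary was chosen after the values were seen. No S2P peak lay inside the gene there, but KO had one from 156.4 to 156.8 kb, just past the high end. S2P covered 0% (WT) and 1.55% (KO) of the 20 kb beyond the high end. Below the low end it covered 4.98% and 10.7% of 20 kb.

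At Ikzf5 S2P was greatest at the end shared with Pstk, a selenocysteine pathway kinase gene whose table entry overlaps Ikzf5 over 4.12 kb. In that stretch 49.6% (WT) and 66.7% (KO) was covered, and in the other 17.75 kb 11.9% and 12.6%. Reads of the shared stretch cannot be assigned to either gene, and without it the genotypes differed by less than 1 percentage point. The Ikzf5 start is at the other end, and the 2 of 10 parts nearest to it were at 0 in both lists. At Ikzf4 S2P was limited to 1 peak of 756 bp in WT and 209 bp in KO in the part next to the low end. Its neighbours Rps26 (100% in both) and Rab5b (45.6% and 52.5%) were covered, and Suox was at 0. Around Ikzf3 the neighbours Mien1, Grb7 and Zpbp2 were at 0 as well, as was Acadsb next to Ikzf5.

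**Figure D5:**
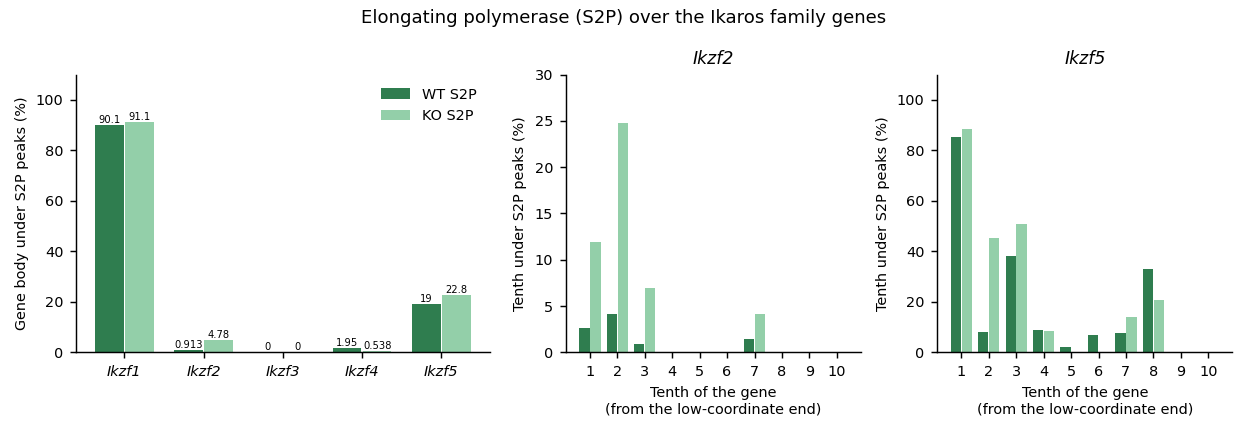
The left panel gives the share of each member's gene body under S2P peaks in the WT and KO lists, in percent, with the value above each bar. The other panels give the share in 10 equal parts of Ikzf2 (vertical axis to 30%) and Ikzf5, counted from the low-coordinate end. Ikzf1 stands at 90.1% and 91.1%, and the parts of Ikzf2 with S2P are 1, 2, 3 and 7 in both genotypes.

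The genes most like each member in these lists were found by a distance over 6 values, the 4 peak densities and both S2P shares, among 19286 candidate genes. For Ikzf1 they were Pnn (0.31) and Slc16a6 (0.40), against a median distance of 6.29. Both had S2P shares near 89% and 19.1 and 20.7 WT GATA2 peaks per 100 kb. For Ikzf2 they were Gm5431 (0.32) and Prss28 (0.37), which had no S2P peak. For Ikzf5 they were the chromatin genes Kdm6a (0.13) and Kmt5b (0.16), for Ikzf4 Sdhaf3 (0.12) and Rnf128 (0.18), and for Ikzf3 4921507P07Rik (0.11) and Mmp15 (0.11). The matches of Ikzf4 had near 11 WT GATA2 peaks per 100 kb, and those of Ikzf3 had 6.29 and 6.45.

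Most genes whose products work with Ikaros proteins had peaks of both factors and of S2P. Of 18 genes for partner repressor complexes, among them the NuRD ATPase Chd4 and the deacetylases Hdac1 and Hdac2, 16 had a GATA2 peak in WT and 17 in KO, and all 18 had a RUNX1 peak in both. Over all genes these shares were 70.8% and 74.3% for GATA2 and 59.3% and 61.2% for RUNX1. Their median S2P share was 56.1% and 55.4%, with 9 higher and 9 lower in KO, beside 0.0532% and 0.160% over all genes. In WT the highest were Rbbp7 (97.6% and 97.3%) and Chd4 (91.0% and 90.5%), and the lowest Hdac2 (8.42% and 15.2%) and Sin3b (16.4% and 16.7%). Ctbp2, a corepressor gene named after its values were seen, had 53.2% in WT and 14.4% in KO, the lowest KO share of the list. Hdac2 was the one with GATA2 in 1 genotype only, with 0 peaks in WT and 5 in KO. The 5 genes of the cereblon ubiquitin ligase, which drugs of the thalidomide class turn on Ikaros and Aiolos, were all bound by both factors in both genotypes. Over all genes 54.4% were. The median S2P share of the 5 ligase genes was 80.1% and 85.1%. It ran from Ddb1 (94.1% and 95.3%) and Rbx1 (90.0% and 85.1%) down to Crbn (54.5% and 51.0%) and Cul4b (2.88% and 5.52%).

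Lymphoid transcription factor genes had GATA2 peaks about as often as genes at large. Of 14 lymphoid transcription factor genes 10 had a GATA2 peak in WT and 9 in KO, and 7 had a RUNX1 peak in both lists, beside all-gene shares of 70.8%, 74.3% and 57.9%. Of the 13 that are at least 2 kb long, 2 were covered at 50% or more, Tcf3 (95.4% and 91.6%) and Bcl11a (79.3% and 89.0%), and 8 had no S2P peak, beside 48.3% of all genes. Covered in both genotypes were 15.8% of all genes. Ebf1 had 2 GATA2 peaks in WT and 0 in KO. Of 13 known Ikaros target genes of lymphoid cells 11 had GATA2 and 9 had RUNX1 peaks in each genotype. Peaks in both genotypes were found at 68.1% (GATA2) and 57.9% (RUNX1) of all genes. Of the 12 target genes long enough for S2P, 9 had none and 3 were covered in both genotypes. The 3 were Myc (91.7% and 93.6%), Hes1 (73.4% and 65.0%) and Cdk6 (62.6% and 65.0%). The genes of the recombinase, Rag1 and Rag2, had 10 GATA2 peaks each in WT in windows that overlap, and no S2P. GATA2 peaks at a gene without S2P were thus found at Rag1 and Rag2 as at Ikzf3.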

How the data were processed

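The submitters' processing notes name Bowtie2 2.2.1, MACS2 2.1.0 and the build GRCm38, without settings. The authors deposited 6 narrowPeak lists without headers, each cut near a q-value of 0.05. The deposited columns hold a peak score, the fold enrichment (a ratio) of pileup over local background, and −log10 p and −log10 q. How both S2P replicates were combined, and which input served which list, is not given in the sources used here.

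Under the caller's Poisson model, the deposited −log10 p and fold enrichment together gave each summit's whole fragments and its local background. In the 4 factor lists 100% of summits came out whole (tolerance 0.005 in −log10 p), and S2P was used as deposited. A peak was assigned to a gene by its summit (20 kb on either side), and lists were overlapped by at least 1 bp. S2P shares over all genes and gene lists used genes of at least 2 kb, and 50% counted as covered. Markers and neighbouring genes were included at any length. KO over WT ratios used fragments per lowest background of the list, with exact conditional intervals of 95%. The code was tested on simulated data. Python 3.11.15, pandas 2.3.3 and SciPy 1.17.1 were used.

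All 5 members were named. Per member and list, sites among the 3 strongest by −log10 q that both genotypes or both factors shared were described, others by counts. From lists, the 2 highest and 2 lowest S2P shares in WT were named, and the 2 nearest genes per member. The members, lists and windows were chosen with earlier results of these data known. Read depth is not given in the sources used here, so precision rests on summit fragments. PCR copies could not be told from separate molecules. Exons, introns and strand were not used here, except the strand of the 3 promoters, and protein sequences were not compared. Inputs were not analysed here.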

Additional observations from a re-analysis of the deposited data

How the results depend on the processing

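Over stricter limits, narrower windows, larger overlaps and other scalings, 56 of 76 main values stayed within their error or within 1.5 times, as did 57 of 89 values for single members or sites. The KO to WT direction turned for Ikzf4 GATA2 peaks (9 and 8, against 7 and 8 at −log10 q of at least 5 and 5 and 6 at 10) and for the Ikzf5 GATA2 median log2 ratio (0.15, against -0.20 by deposited fold enrichment). With the median of all pairs at 0, the Ikzf3 GATA2 median also turned, from 0.075 to -0.032. So did the RUNX1 medians of Ikzf4 (0.13 to -0.057) and Ikzf5 (0.098 to -0.092). At −log10 q of at least 10, WT GATA2 peaks numbered 59. Within the gene bodies alone, RUNX1 peaks numbered 17 (WT) and 23 (KO). Without Ikzf2, a choice made after the values were seen, GATA2 peaks numbered 53 and 57 and RUNX1 peaks 17 and 21. At −log10 q of at least 5, 100% of WT RUNX1 peaks were shared, and the S2P share of Ikzf2 was 0.46% (WT) and 2.73% (KO). With 5 kb on either side, the S2P share was 1.46% at Ikzf2 in WT and 3.002% and 1.97% at Ikzf4. Without the stretch that Pstk also covers, also chosen later, Ikzf5 had 11.9% and 12.6%. With the median of all pairs at 0, the median log2 ratios were 0.11 (GATA2) and 0.075 (RUNX1), and no RUNX1 summit was 2-fold higher in KO (0 against 1). By deposited fold enrichment, 5 GATA2 summits were 2-fold higher and 1, in Ikzf4, was 2-fold lower. Of the 3 summits called by fragments, only that at 126.0 kb in Ikzf2 is among the 5. The causes were not tested. No paired analysis was possible because each genotype had 1 combined S2P list and 1 library per factor, and leaving out a replicate could not be run for the same reason. The summit fragments limit what can be seen: a pair of 15 and 45 fragments has a log2 interval from 0.63 to 2.45.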
